A study of Mus musculus with 52 samples.

Results

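Wild-type astrocytes that had been given medium from APOE KO neurons were compared with wild-type astrocytes given medium from normal neurons, across all genes. The comparison used 6 of the 52 libraries of the series, 3 per medium, chosen by the treatment named in their labels. The series also holds 3 libraries of untreated wild-type astrocytes, used here as a baseline for both media, within 27 astrocyte libraries in 9 groups, and brain libraries that were not used. All cells were labelled as C57BL/6. The astrocytes of the 3 groups kept a working Apoe gene, and the knockout was in the neurons that supplied the medium. The dose and duration of the medium, and the way the neurons were grown, are not given in the labels used here. Titles of the libraries of both media contain the letters KA without a stated meaning. Nothing in the labels says whether the 3 libraries of a group stem from separate cultures or animals, so each p-value reflects differences among libraries that may be technical only.

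Astrocytes buffer potassium, clear glutamate and take up fatty acids that neurons release. Apolipoprotein E, the product of Apoe, is the main lipid carrier that glia secrete in brain, and neurons under stress can also make it. Particles that carry it can pass peroxidised lipid from neurons to astrocytes, which store it in droplets or burn it. Primary astrocyte cultures commonly hold some microglia, the macrophages of the brain, which sense lipids and debris through scavenger and pattern recognition receptors. PU.1, encoded by Spi1, is the transcription factor that sets up macrophage gene expression, and interferon response genes are switched on through response elements in their promoters. In bulk RNA, more cells of a type and more RNA per cell cannot be told apart.

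Many of the largest rises described below were of genes of macrophages and other blood-lineage cells, so 4 promoters are shown first, of 3 such genes and of an interferon-stimulated gene that rose. Each runs from 250 bases before to 50 bases after the start site, in RefSeq's GRCm38.p6, read 5′ to 3′ on the strand of the gene. Capitals mark the core of the PU.1 site, GAGGAA or its reverse complement TTCCTC, and the core of the interferon-stimulated response element, GAAANNGAAA, where N is any base. Cd72 lies on the minus strand at chr4:43454577-43454876, Marco on the minus strand at chr1:120504975-120505274, Aif1 on the minus strand at chr17:35176003-35176302 and Bst2 on the minus strand at chr8:71537423-71537722.
Cd72: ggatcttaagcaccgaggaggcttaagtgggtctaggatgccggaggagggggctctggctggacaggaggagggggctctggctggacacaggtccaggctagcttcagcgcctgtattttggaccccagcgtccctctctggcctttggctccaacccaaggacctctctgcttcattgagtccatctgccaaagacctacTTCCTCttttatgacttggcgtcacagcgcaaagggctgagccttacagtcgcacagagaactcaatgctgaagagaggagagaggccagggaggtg
Marco: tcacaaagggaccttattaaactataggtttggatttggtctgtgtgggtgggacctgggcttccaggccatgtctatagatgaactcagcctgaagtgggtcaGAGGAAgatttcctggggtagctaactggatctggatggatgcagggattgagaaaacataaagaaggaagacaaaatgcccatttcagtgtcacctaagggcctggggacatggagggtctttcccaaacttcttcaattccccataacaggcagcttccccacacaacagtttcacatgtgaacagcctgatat
Aif1: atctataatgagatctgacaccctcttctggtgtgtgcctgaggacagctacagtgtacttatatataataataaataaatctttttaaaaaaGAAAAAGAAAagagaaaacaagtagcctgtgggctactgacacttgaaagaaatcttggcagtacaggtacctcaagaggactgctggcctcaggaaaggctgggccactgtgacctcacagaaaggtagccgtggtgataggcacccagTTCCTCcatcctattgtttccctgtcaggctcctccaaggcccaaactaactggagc
Bst2: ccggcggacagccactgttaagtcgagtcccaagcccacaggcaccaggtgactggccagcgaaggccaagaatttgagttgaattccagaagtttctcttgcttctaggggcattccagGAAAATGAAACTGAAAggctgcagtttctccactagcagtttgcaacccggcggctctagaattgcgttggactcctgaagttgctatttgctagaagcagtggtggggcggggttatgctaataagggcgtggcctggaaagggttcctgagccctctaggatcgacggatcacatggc
The PU.1 core began at position -47 in Cd72 and at -7 in Aif1, both on the opposite strand, and at -146 on the same strand in Marco, counted from the start site. The interferon element began at -157 in Aif1, and in Bst2 at -130 and -124, a pair of overlapping matches. No match of the PU.1 core overlapped a match of the interferon element in these 4 promoters.

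The counts of these motifs describe letters, not binding. Of 156 genes that rose, 124 had a promoter in the RefSeq table, and 59 of these (47.6%) held the PU.1 core on either strand. The same core stood in 20 of the 49 promoters of genes that fell (40.8%), in 3491 of the 11563 promoters of genes tested (30.2%), and in 27.8% of all 25655 promoters of the table's genes. Among markers of microglia and macrophages, 11 of 14 promoters (78.6%) held it. The interferon element stood in 10 promoters of genes that rose (8.06%), in 4 of genes that fell (8.16%), in 421 of genes tested (3.64%), and in 3.35% of all promoters. Of the interferon-stimulated genes listed here, 12 of 18 promoters (66.7%) held it. Shares were thus above that of all genes among genes that rose and among genes that fell.

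Of 16161 genes tested, 156 were higher with APOE KO neuronal medium than with normal neuronal medium (0.965%) and 73 were lower (0.452%), by limma on log2(TPM + 1) at an adjusted p of 0.05. TPM scales each gene by its transcript length and each library to a common total, so sequencing depth is not known from it. The rises were the larger: 51 reached 2-fold and their median log2 fold change was 0.67, while 4 falls reached 2-fold and the median of the falls was -0.59. The median over all genes tested was -0.0139. An unadjusted p under 0.05 was reached by 2080 of the 16161 genes. In 228 of the 229 the 3 libraries of one medium all lay outside the range of the other medium's. Such separation was itself common, since 11% of all genes tested were separated upward and 12.1% downward. The counts depended on each of the libraries: 97, 103 and 93 rises and 23, 37 and 45 falls were called without APOE KO medium library 1, 2 or 3, and 85, 113 and 111 rises and 20, 45 and 54 falls without normal medium library 1, 2 or 3. Of the 12 largest rises and 12 largest falls named by rule, 9 and 3 passed with each of these 6 libraries left out in turn. Some genes would have missed the level filter without the libraries of 1 medium, 124 for APOE KO medium and 140 for normal medium. Whether these genes were tested thus depended on their level in that medium. With the 124 left out 146 rises remained, and with the 140 left out 68 falls remained. Without either set, 15935 genes were left. Fold changes on this scale understate the change of low genes.

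**Figure D1:**
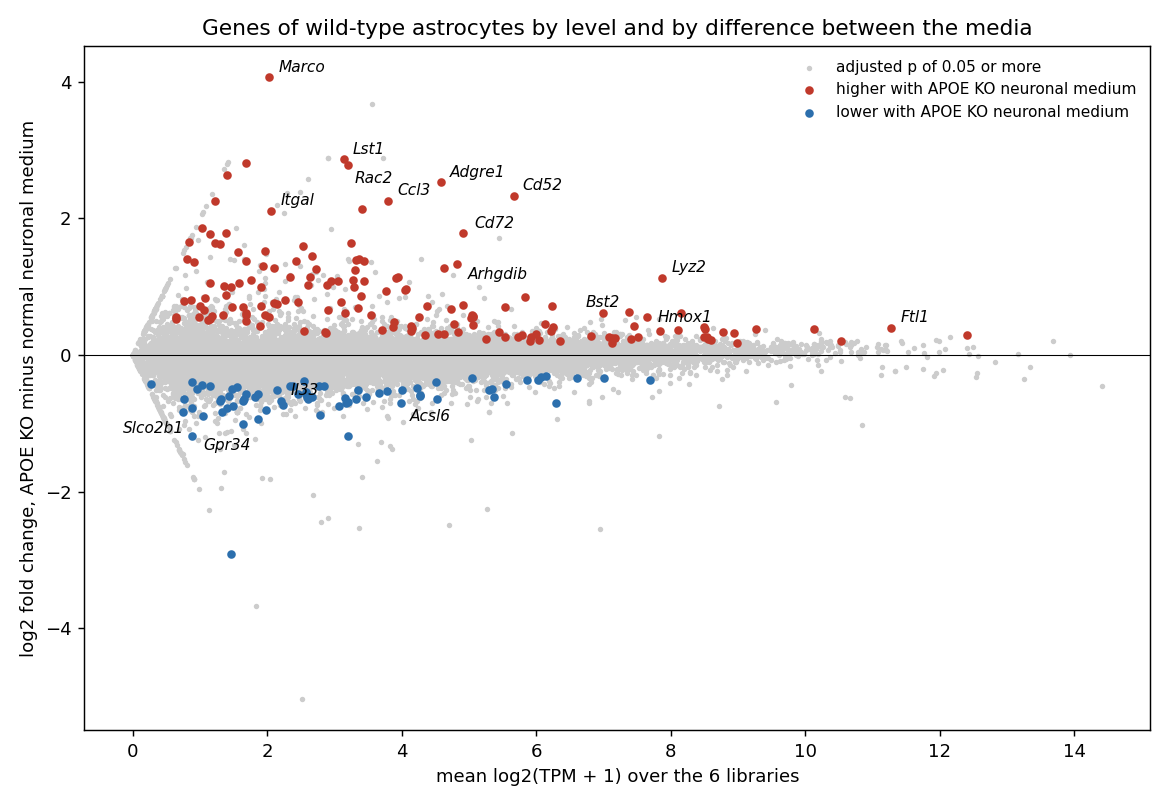
Each point is a gene tested: mean log2(TPM + 1) over the 6 libraries on the x axis, and log2 fold change, APOE KO minus normal neuronal medium, on the y axis. Red points are the 156 genes that rose and blue points the 73 that fell at an adjusted p of 0.05. The largest rises lie at low and middle levels, and Ftl1 is among the few abundant genes that passed. Marco is listed at 0 in every normal medium library, so its height depends on the 1 added to each TPM.

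Few genes separated normal medium from no treatment. Normal medium against untreated gave 3 higher genes (0.0186%) and 3 lower (0.0186%), whereas APOE KO medium against untreated gave 157 higher (0.971%) and 86 lower (0.532%). The higher genes under normal medium were Sap30l, Deup1 and Mcidas, and the lower ones Tpm1, Aldh1a1 and the ribosomal protein pseudogene Rpl28-ps1, all named after their values were seen. These comparisons share libraries with the comparison of the media, so their values are set side by side only. Over the 156 genes that rose between the media, the median log2 fold change was 0.54 for APOE KO medium against untreated and -0.09 for normal medium against untreated. Over the 73 that fell, the medians were -0.41 and 0.17.

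Adgre1, Cd52 and Cd72 were the largest of the 12 rises named by size among genes above the median level. Adgre1, which encodes the macrophage surface protein F4/80 and spans chromosome 17, 57358691 to 57483527 (mm10, GENCODE M21), was 53.6, 58.9 and 57.5 TPM with APOE KO medium and 9.71, 10.3 and 7.16 TPM with normal medium. Untreated cells had 8.89, 12.1 and 9.42 TPM, so only the APOE KO medium libraries stood apart, without overlap. Its log2 fold change was 2.53 ± 0.22 (SE; adjusted p = 1.85e-06) between the media. Cd52, a small glycoprotein anchored on leukocytes (chromosome 4, 134082448 to 134095082), was 113, 97.6 and 130 TPM with APOE KO medium and 21.3, 22.1 and 21.5 TPM with normal medium. The untreated libraries had 25.2, 17.5 and 25.8 TPM, and the log2 fold change between the media was 2.33 ± 0.24 (adjusted p = 2.06e-05). Each APOE KO medium library held more Cd52 than any of the other 6 libraries. Cd72, a lectin-type coreceptor of B cells that macrophages also carry, whose promoter is shown above, was 55.2, 56 and 53.5 TPM with APOE KO medium and 21.2, 12.7 and 13.1 TPM with normal medium (log2 1.78 ± 0.31, adjusted p = 0.00352). The groups did not overlap, and normal medium library 1 was the highest of its group. All 3 genes passed with each of the 6 libraries left out.

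**Figure D2:**
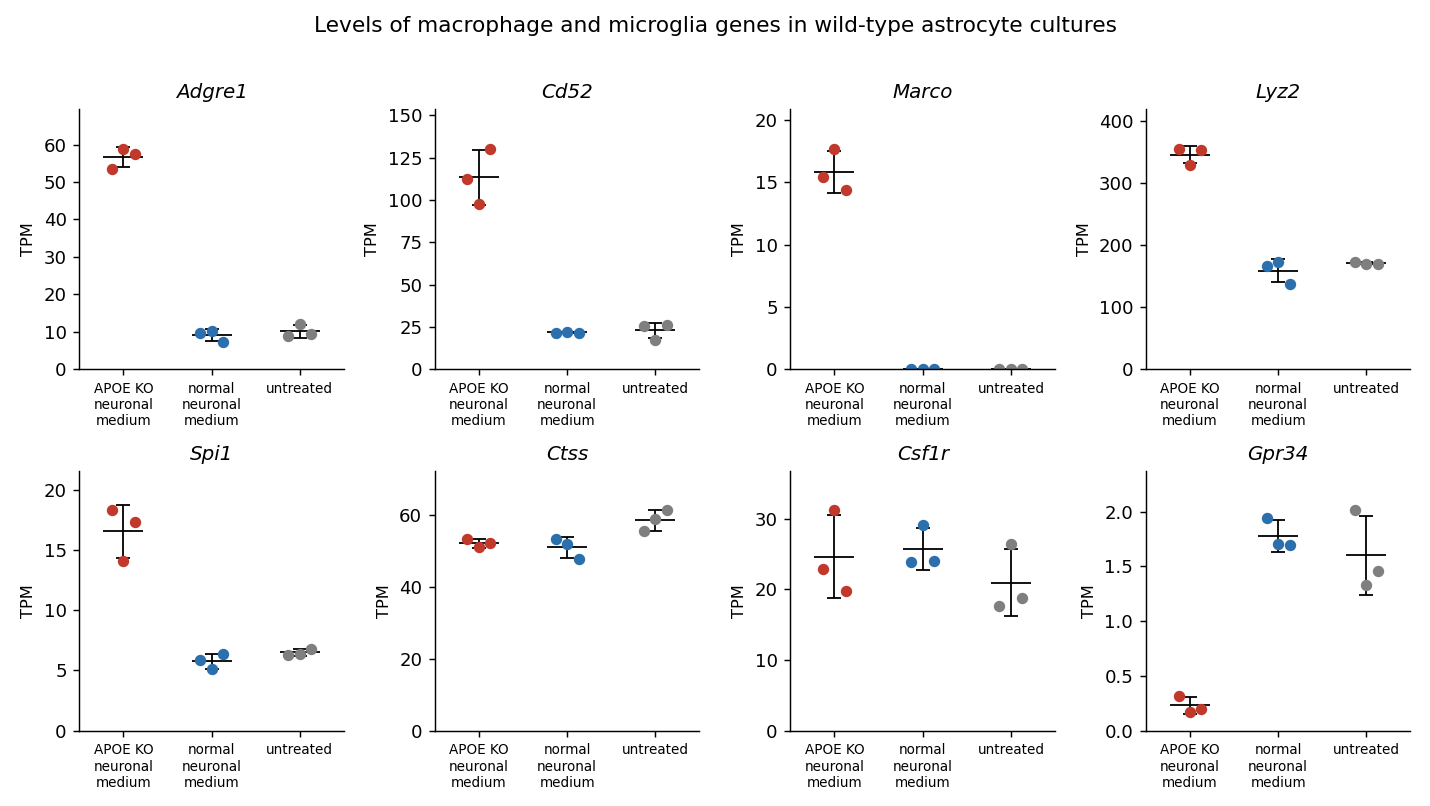
TPM of 8 genes in each library of wild-type astrocytes given APOE KO neuronal medium (red), normal neuronal medium (blue) or nothing (grey); points are libraries, horizontal bars the mean and whiskers the SD (n = 3). Adgre1, Cd52, Marco, Lyz2 and Spi1 are higher with APOE KO medium with no overlap, Gpr34 is lower, and Ctss and Csf1r overlap between the media.

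Several genes with large differences were close to 0 with normal medium and untreated, and they were singled out after their values were seen. Marco, a scavenger receptor that binds bacteria and modified lipoproteins (chromosome 1, 120474538 to 120505024), was 15.4, 17.7 and 14.4 TPM with APOE KO medium and was listed at 0 in all 3 normal medium libraries. The untreated libraries had 0.04, 0 and 0 TPM, so no fold is given (adjusted p = 0.00199 between the media). Fpr1, a receptor for bacterial formyl peptides, was 4.69, 6.45 and 5.78 TPM with APOE KO medium and 0.07, 0.06 and 0.06 TPM with normal medium (log2 2.63 ± 0.43, adjusted p = 0.00169). Marco and Fpr1 reached the level filter only through the APOE KO medium libraries, so they were tested because of their level there. Clec4a2, a lectin receptor of myeloid cells, was 8.12, 6.68 and 7.81 TPM with APOE KO medium and 0.62, 0 and 0.1 TPM with normal medium (log2 2.81 ± 0.37, adjusted p = 0.000178). In each of the 3 genes every APOE KO medium library lay above every normal medium and untreated library. Outside these groups, library 1 of the APOE KO astrocytes given oleic acid had 25 TPM of Marco and 6.56 TPM of Fpr1. Lst1, a leukocyte-specific transcript, was 25.6, 17.2 and 27 TPM with APOE KO medium and 1.56, 2.42 and 2.95 TPM with normal medium, without overlap (log2 2.87 ± 0.48, adjusted p = 0.00236). Other myeloid receptors that passed included Clec4a1 (log2 2.26), Siglece (log2 1.77), Cd300ld (log2 1.63), Ms4a7 (log2 1.39) and Pirb (log2 0.56). Of the genes of this paragraph, Pirb lost its call without APOE KO medium library 3 or normal medium library 3 (highest adjusted p = 0.0795).

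Many genes of signalling and cytoskeletal proteins of blood-lineage cells rose. In a list of these adaptors, integrins and actin regulators, written after the values were seen, 25 of 34 members tested rose (73.5%, against 0.965% of all genes tested) and none fell, with a median log2 fold change of 0.75 against -0.0139 over all genes tested. Rac2, a small GTPase of blood cells, was 38.5, 12.9 and 24.4 TPM with APOE KO medium and 2.71, 2.64 and 2.17 TPM with normal medium (log2 2.78 ± 0.39, adjusted p = 0.000315). Its 3 APOE KO medium values were spread widely but all lay above the other group. Arhgdib, which holds small GTPases inactive in such cells, was 44.2, 37.5 and 51 TPM with APOE KO medium and 18.2, 15.9 and 16.5 TPM with normal medium (log2 1.33 ± 0.20, adjusted p = 0.000809). Itgal, the alpha chain of the leukocyte integrin LFA-1, was 6.44, 8.57 and 8.24 TPM with APOE KO medium and 1.21, 0.94 and 0.89 TPM with normal medium (log2 2.11 ± 0.23, adjusted p = 3.03e-05). Its partner Itgb2 rose by a log2 of 0.99 ± 0.15 (adjusted p = 0.000685), and neither integrin chain overlapped between the media. Lcp1, an actin bundler of leukocytes, had 25.7 ± 1.15 TPM with APOE KO medium and 15.2 ± 1.24 TPM with normal medium (SD, n = 3 each), close to the threshold (log2 0.72 ± 0.18, adjusted p = 0.0478), and it did not pass without any 1 of the 6 libraries (adjusted p = 0.0782 to 0.165). The count of members that rose was 17 without APOE KO medium library 3, and 19 to 22 without any other of the 6 libraries, and it was 13 at the lowest over all alternatives.

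The transcription factor Spi1 was 18.3, 14.1 and 17.3 TPM with APOE KO medium and 5.85, 5.12 and 6.35 TPM with normal medium. Untreated cells had 6.32, 6.38 and 6.79 TPM, so again both groups without the APOE KO medium sat together. The log2 fold change between the media was 1.37 ± 0.23 (adjusted p = 0.00244). Lyz2, lysozyme M, a product of macrophages, was 356, 330 and 354 TPM with APOE KO medium and 166, 173 and 137 TPM with normal medium (log2 1.13 ± 0.17, adjusted p = 0.000664). Unc93b1, which carries nucleic-acid-sensing Toll-like receptors to endolysosomes, was 20.2, 20.7 and 25.7 TPM with APOE KO medium and 11.2, 11.5 and 10.3 TPM with normal medium (log2 0.95 ± 0.13, adjusted p = 0.000315). For both genes the media did not overlap. C3ar1, the receptor of complement fragment C3a, rose by a log2 of 1.14 ± 0.12 (adjusted p = 2.06e-05). Fcer1g, the signalling chain of Fc receptors, rose by 0.85 ± 0.17 (adjusted p = 0.00865), Lgals3bp, a secreted galectin ligand, by 0.72 ± 0.10 (adjusted p = 0.000412), and Glipr1 by 0.97 ± 0.21 (adjusted p = 0.0216). Glipr1 passed only without normal medium library 2 among these leave-out fits (highest adjusted p = 0.129), and Fcer1g did not pass without normal medium library 3 (adjusted p = 0.0572). Slc13a3, a sodium-coupled transporter of dicarboxylates, was 36.8, 37.4 and 37.9 TPM with APOE KO medium and 15.2, 15.7 and 14 TPM with normal medium (log2 1.27 ± 0.17, adjusted p = 0.000178).

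Not every macrophage gene rose. Of 20 microglia and macrophage markers tested, 6 rose (30%, against 0.965% of all genes tested) and none fell, namely Laptm5, Fcrls, Fcer1g, Aif1, Cx3cr1 and Ptprc, and 14 did not pass, with a median log2 fold change of 0.27. Aif1, the microglial protein IBA1, was 18, 12.8 and 17.1 TPM with APOE KO medium and 6.54, 5.3 and 4.27 TPM with normal medium (log2 1.41 ± 0.32, adjusted p = 0.0268). Cx3cr1, the microglial fractalkine receptor, was 17.8, 18 and 20.9 TPM with APOE KO medium and 15.7, 14.6 and 13.4 TPM with normal medium (log2 0.35 ± 0.09, adjusted p = 0.0402). The Aif1 and Cx3cr1 groups did not overlap, but the second difference was small. Ctss, the lysosomal protease cathepsin S, was 53.5, 51 and 52.1 TPM with APOE KO medium and 53.3, 51.9 and 47.7 TPM with normal medium (log2 0.03 ± 0.10, adjusted p = 0.942). Csf1r, the receptor that keeps microglia alive, was 22.9, 31.1 and 19.8 TPM with APOE KO medium and 23.9, 29.1 and 24 TPM with normal medium (log2 -0.08 ± 0.20, adjusted p = 0.932). Both groups overlapped for these genes. Tmem119 differed by a log2 of 0.11 ± 0.13, Tyrobp by 0.27 ± 0.11, P2ry12 by -0.30 ± 0.15 and Trem2 by -0.46 ± 0.16, none past the test. Summed over the 20 markers, the level was 727 to 814 TPM with APOE KO medium, 583 to 679 TPM with normal medium and 637 to 703 TPM in untreated cells. The number of markers that rose was 2 without normal medium library 3, 3 without APOE KO medium library 3 or normal medium library 1 or 2, and 4 without APOE KO medium library 1 or 2. Fcrls and Laptm5 passed in all 6 of these fits, Aif1 in 1 (highest adjusted p = 0.122), and Cx3cr1 and Ptprc in none (highest adjusted p = 0.198 and 0.181). With a pseudocount of 0.1 in place of 1, the number was 2, and over all alternatives it was 2 to 7.

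Lists written after the values were seen divided these genes further. Of 12 genes of border and tissue macrophages tested, 6 rose and none fell (Adgre1, Lyz2, Marco, Clec12a, Ms4a7 and Ms4a6c; 50%, against 0.965% of all genes tested). Another 5 lay below 0, with Pf4 the furthest at a log2 of -1.15 ± 0.33 (adjusted p = 0.101). Over the alternatives, 0 to 1 of the list fell. Marco reached the level filter only through the APOE KO medium libraries, and without it 5 of 11 rose. Mrc1, the mannose receptor of border macrophages, was 0.69, 0.61 and 0.73 TPM with APOE KO medium and 0.96, 0.75 and 0.9 TPM with normal medium (adjusted p = 0.592). Of 18 homeostatic microglia genes, 2 rose (Fcrls and Cx3cr1) and 2 fell (11.1% each way, against 0.965% and 0.452% of all genes tested), with a median of -0.09. Of these, 1 rose without any 1 of the 6 libraries and none with a pseudocount of 0.1. Those that fell were Gpr34, a lysophosphatidylserine receptor, at 0.32, 0.17 and 0.2 TPM with APOE KO medium and 1.94, 1.7 and 1.69 TPM with normal medium (log2 -1.18 ± 0.14, adjusted p = 7.29e-05), and Slco2b1, an organic anion transporter, at 0.42, 0.49 and 0.61 TPM with APOE KO medium and 2.01, 1.68 and 1.77 TPM with normal medium (log2 -0.90 ± 0.15, adjusted p = 0.00201). Both are low in all libraries but separated without overlap. Among 23 genes of activated, lipid-handling phagocytes, none rose and 1 fell (4.35%, against 0.452% of all genes tested), with a median of -0.01. It was the galectin gene Lgals3, which fell by 0.36 on the log2 scale (SE 0.07, adjusted p = 0.0117). Over the alternatives 0 to 1 of the 23 rose and 0 to 6 fell, the 6 in a fit of the 5 wild-type groups. Of 20 monocyte and neutrophil genes listed, 11 were too low to test and 6 were at 0 in all 6 libraries. Itgal, Fpr1 and Clec4d rose among the other 9 (33.3%, against 0.965% of all genes tested). Fpr1 was tested only because of its level with APOE KO medium. Of 17 lymphocyte and dendritic cell genes, 2 were high enough to test, none passed, and the summed level was 5.51 to 7.08 TPM with APOE KO medium and 5.25 to 7.03 TPM with normal medium. Ms4a6c passed in 2 of the 6 fits that left out a library (highest adjusted p = 0.194), Lgals3 in 3 (highest adjusted p = 0.0653) and Clec4d in none (highest adjusted p = 0.115). Whether the macrophage-type genes came from more such cells or from more RNA in each was not tested.

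**Figure D3:**
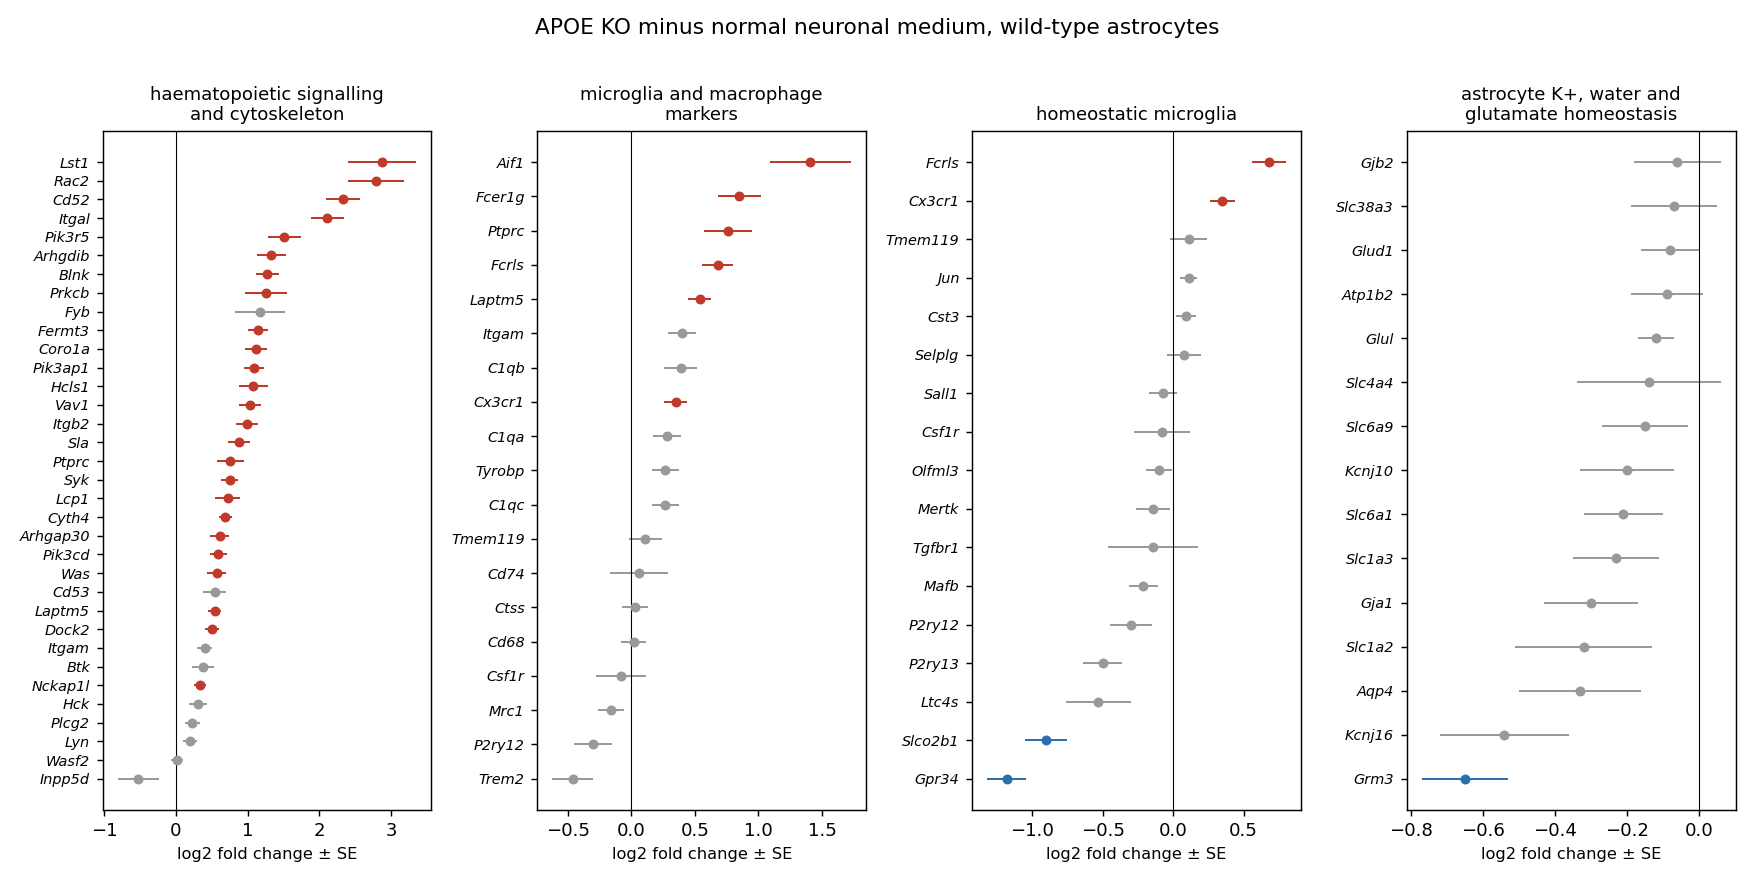
Log2 fold change ± SE, APOE KO minus normal neuronal medium, of members tested in 4 gene lists, leaving out those not reported here. Red points rose and blue points fell at an adjusted p of 0.05, and grey points did not pass. In the blood-lineage list 25 of 34 rose, in the homeostatic microglia list 2 rose and 2 fell, and all the astrocyte homeostasis genes plotted lie below 0. The blood-lineage and homeostatic microglia lists were written after the values were seen, so their counts depend on that choice.

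Of 31 chemokines, cytokines and NF-kB targets tested, 4 rose (12.9%, against 0.965% of all genes tested) and 1 fell (3.23%, against 0.452%), with a median log2 fold change of 0.37. The number that rose was 2 with a pseudocount of 0.1 or median-ratio scaling, 7 in a fit of the 2 groups alone, 8 in a fit of the 5 wild-type groups and 11 without library 1 of the APOE KO astrocytes given oleic acid. Ccl3, which attracts monocytes (chromosome 11, 83647844 to 83649355), was 27.2, 30.7 and 30.6 TPM with APOE KO medium and 5.79, 5.74 and 4.66 TPM with normal medium (log2 2.26 ± 0.44, adjusted p = 0.00895). Its neighbour Ccl4 was 21.2, 23 and 19.9 TPM with APOE KO medium and 4.56, 4.03 and 3.61 TPM with normal medium (log2 2.14 ± 0.42, adjusted p = 0.00969). The media did not overlap for either chemokine, and untreated cells were near the normal medium at 4.59 ± 0.154 TPM of Ccl3 and 5.02 ± 1.81 TPM of Ccl4 (SD, n = 3 each). Cx3cl1, the membrane-bound ligand of Cx3cr1, rose by a log2 of 0.41 ± 0.07 (adjusted p = 0.00424), and Cxcl12 by 0.33 ± 0.08 (adjusted p = 0.0421). Il33, an alarmin kept in glial nuclei, fell to 2.64, 2.51 and 2.86 TPM with APOE KO medium, against 5.65, 4.75 and 4.24 TPM with normal medium (log2 -0.67 ± 0.13, adjusted p = 0.00944). Several others were higher in every library but did not pass: Saa3, an acute phase protein, was 13, 8.24 and 9.7 TPM with APOE KO medium and 0.56, 1.46 and 1.59 TPM with normal medium (adjusted p = 0.115), and Lcn2, an iron-siderophore-binding lipocalin, was 9.73, 7.1 and 10.2 TPM with APOE KO medium and 1.81, 3.61 and 1.9 TPM with normal medium (adjusted p = 0.215). Saa3 was 105, 4.69 and 3.8 TPM in the 3 libraries of APOE KO astrocytes given oleic acid, a group that enters the shared estimate of spread. Cxcl12 did not pass without 4 of the 6 libraries (APOE KO medium 2 or 3, normal medium 1 or 3; highest adjusted p = 0.249), nor Il33 without normal medium library 1 (adjusted p = 0.0785). Tnf had a log2 difference of 1.40 (adjusted p = 0.169), and Il6 one of 0.03 (adjusted p = 0.99).

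Interferon-stimulated genes leaned upward, and few passed. Of 26 tested, 2 rose (7.69%, against 0.965% of all genes tested), none fell, 24 had a log2 fold change above 0, and the median was 0.37. Bst2, tetherin, which holds budding viruses at the membrane and whose promoter is shown above, was 207, 215 and 199 TPM with APOE KO medium and 125, 149 and 126 TPM with normal medium (log2 0.63 ± 0.13, adjusted p = 0.0116). Irf9, the DNA-binding part of the interferon-activated complex, was 29.2, 32.5 and 31.4 TPM with APOE KO medium and 22.6, 24.8 and 19.9 TPM with normal medium (log2 0.45 ± 0.11, adjusted p = 0.0326). Both were separated between the media. Isg15, a ubiquitin-like modifier, was 45, 52.6 and 50.3 TPM with APOE KO medium and 25.3, 26.3 and 21 TPM with normal medium, also separated, but its adjusted p was 0.152. No member rose without APOE KO medium library 2 or normal medium library 1 or 3, 1 rose without APOE KO medium library 1 or 3, and none rose under median-ratio scaling. Without 1 of the 6 libraries, the adjusted p reached 0.0733 for Bst2 and 0.154 for Irf9. Without library 1 of the APOE KO astrocytes given oleic acid, an outlying library of another group described further down, 9 rose, and 6 rose in a fit of the 2 groups alone.

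In a list of pattern recognition receptors written after the values were seen, 5 of 23 genes tested rose (21.7%, against 0.965% of all genes tested) and none fell. The median log2 fold change was 0.10, and 9 of the 23 lay below 0. Of the 23, Marco, Fpr1 and Tlr1 would not have reached the level filter without the APOE KO medium libraries, and with these genes left out 3 of 20 rose. The rises were Unc93b1, Fpr1, Marco, the lectin Clec4d (log2 1.59, adjusted p = 0.0253) and the signalling inhibitor Irak3 (log2 0.66, adjusted p = 0.0387). The Toll-like receptors themselves did not pass: Tlr4, the endotoxin receptor, differed by -0.12 (adjusted p = 0.879) and Tlr2 by 0.82 (adjusted p = 0.345). Without any 1 of the 6 libraries, 3 of the 23 rose, and 8 rose without that outlying library. Complement genes gave 2 rises in 16 tested (12.5%, against 0.965% of all genes tested), C3ar1 and Itgb2, with a median of 0.12, both parts of complement receptors, while C1qa, part of the first component, differed by 0.28 ± 0.11 without passing (adjusted p = 0.28).

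Of 25 antioxidant, NRF2 and metallothionein genes, 3 rose (12%, against 0.965% of all genes tested), none fell and 22 did not pass, with a median of 0.08. Hmox1, which degrades haem, was 281, 243 and 207 TPM with APOE KO medium and 147, 193 and 156 TPM with normal medium (log2 0.56 ± 0.10, adjusted p = 0.00422). Ftl1, the ferritin light chain, was 2948, 2800 and 2824 TPM with APOE KO medium and 2060, 2278 and 2141 TPM with normal medium (log2 0.40 ± 0.07, adjusted p = 0.00487). Fth1, the heavy chain, had 6030 ± 281 TPM with APOE KO medium and 4930 ± 294 TPM with normal medium (SD, n = 3 each; log2 0.29 ± 0.07, adjusted p = 0.0326). All 3 were separated between the media. Hmox1 and Ftl1 passed with each of the 6 libraries left out, Fth1 in none of those fits (adjusted p = 0.0571 to 0.175), and under median-ratio scaling or a fit of the 2 groups alone 1 of the 25 rose. Among 28 immediate early genes 2 rose (7.14%, against 0.965% of all genes tested) and none fell. The rises were Junb (log2 0.57 ± 0.14, adjusted p = 0.0423) and Klf2 (log2 0.48 ± 0.12, adjusted p = 0.0387). None of the 28 rose with a pseudocount of 0.1, with no filter, under median-ratio scaling, in a fit of the 2 groups alone or without any of 4 libraries, while 6 rose without APOE KO medium library 3 and 7 without normal medium library 3. Of 36 matrix, protease and TGF-beta target genes 4 rose (11.1%, against 0.965% of all genes tested) and none fell: Fbln5, an elastic fibre protein at 414 ± 2.06 TPM with APOE KO medium and 311 ± 9.15 TPM with normal medium (adjusted p = 0.000596), Tgfbi (log2 0.77), Tgfb1 (log2 0.41) and Ccn1 (log2 0.38). Without APOE KO medium library 1 the number was 1, and 2 without normal medium library 1, 2 or 3. The highest adjusted p without 1 library was 0.186 for Junb, 0.231 for Klf2, 0.0651 for Tgfbi, 0.155 for Tgfb1 and 0.23 for Ccn1, whose groups overlapped. Of 45 cytosolic ribosomal protein genes 2 rose (4.44%, against 0.965% of all genes tested), Rps20 (log2 0.43) and Rpl37 (log2 0.26). All 45 log2 fold changes lay above 0, with a median of 0.12. The count of ribosomal genes that rose was 0 without any 1 of 5 libraries, and 2 without normal medium library 3.

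Astrocyte genes leaned downward. Of 16 genes of potassium, water and glutamate homeostasis tested, 2 fell (12.5%, against 0.452% of all genes tested) and none rose, and all 16 log2 fold changes lay below 0, with a median of -0.20. Grm3, a metabotropic glutamate receptor that fell, was 0.33, 0.3 and 0.45 TPM with APOE KO medium and 1.5, 1.09 and 0.84 TPM with normal medium (log2 -0.65 ± 0.12, adjusted p = 0.00782), without overlap. Aqp4, the water channel, was 223, 267 and 260 TPM with APOE KO medium and 359, 284 and 301 TPM with normal medium, and its groups were separated without passing (log2 -0.33 ± 0.17, adjusted p = 0.436). The glutamate transporter Slc1a3 was 208 ± 17.9 TPM with APOE KO medium and 244 ± 19.4 TPM with normal medium (adjusted p = 0.463), and the potassium channel Kcnj10 was 211 ± 15.6 TPM with APOE KO medium and 242 ± 20.3 TPM with normal medium (adjusted p = 0.604; SD, n = 3 each). Grm3 would not have reached the level filter without the normal medium libraries, and with Grm3 left out 1 of 15 fell. It lost its call without normal medium library 1 (adjusted p = 0.071).

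Of 13 astrocyte markers tested, 1 fell (7.69%, against 0.452% of all genes tested), none rose and all 13 lay below 0, with a median of -0.23. Glul, Gja1, Aqp4, Slc1a3, Slc1a2 and Atp1b2 are also in the list of homeostasis genes above, so these lists are not independent. The marker that fell was Ntsr2, a neurotensin receptor, at 3.55, 4.19 and 3.95 TPM with APOE KO medium and 7.53, 6.71 and 5.79 TPM with normal medium (log2 -0.64 ± 0.15, adjusted p = 0.0289), and it passed in 1 of the 6 fits that left out a library (highest adjusted p = 0.169) and not with a pseudocount of 0.1. Gfap, the astrocyte intermediate filament, was 1096, 1073 and 1172 TPM with APOE KO medium and 1410, 1299 and 1225 TPM with normal medium, separated but not past the test (log2 -0.23 ± 0.08, adjusted p = 0.176). Untreated cells had 1080, 1206 and 1223 TPM of Gfap, within the range spanned by both media. Against untreated cells, the astrocyte markers had a median log2 difference of -0.08 with APOE KO medium and 0.12 with normal medium, and the homeostasis genes -0.09 and 0.12. None of the 13 pan-reactive astrocyte genes passed in either direction, and their median was 0.04. An unadjusted p under 0.05 was reached by 5 of the 13, against 2080 of all 16161 genes tested. In a fit of the 2 groups alone 2 of the 13 rose, and 3 without library 1 of the APOE KO astrocytes given oleic acid.

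**Figure D4:**
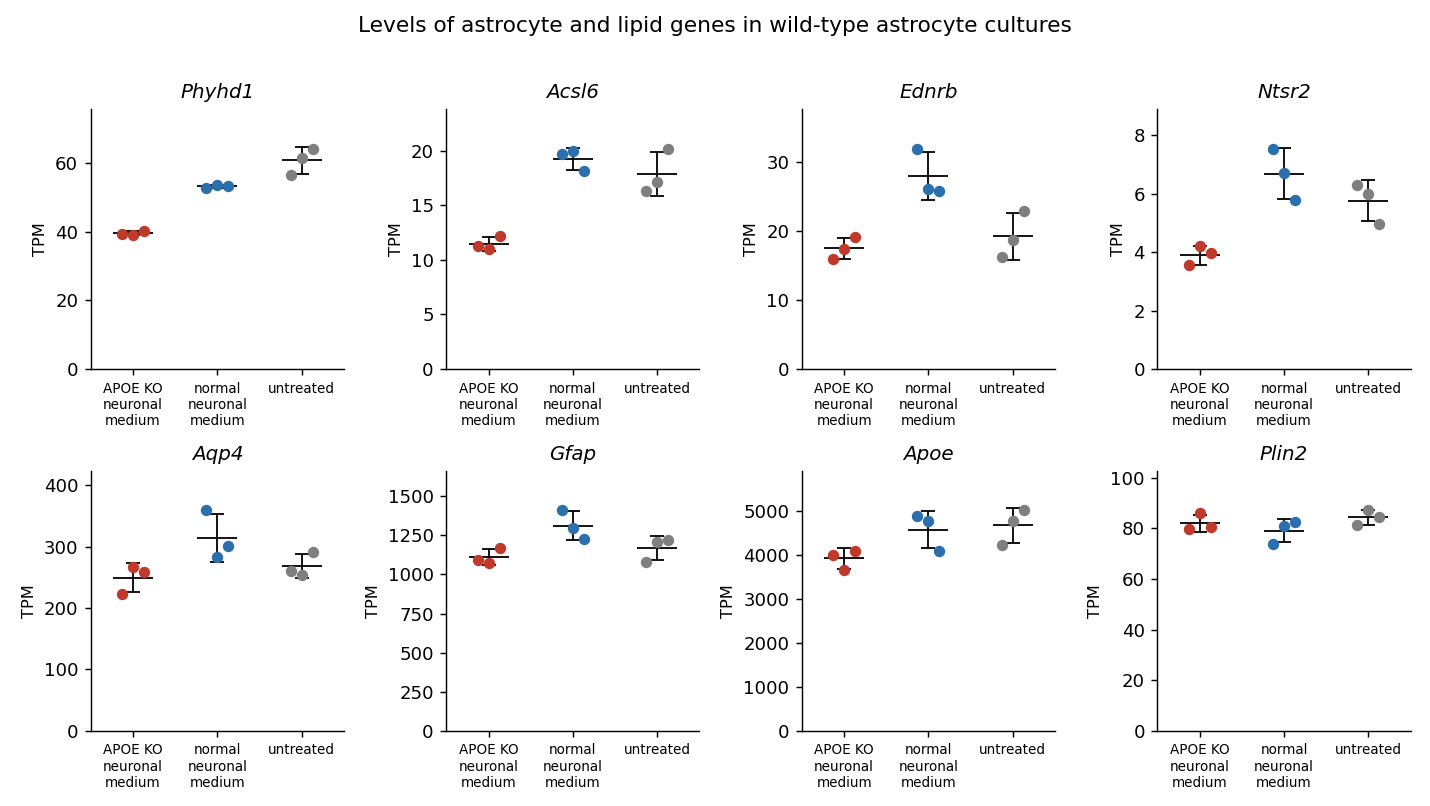
TPM of 8 genes in each library of wild-type astrocytes given APOE KO neuronal medium (red), normal neuronal medium (blue) or nothing (grey); points are libraries, horizontal bars the mean and whiskers the SD (n = 3). Phyhd1, Acsl6, Ednrb and Ntsr2 fell with APOE KO medium. For Ednrb the untreated libraries overlap the APOE KO medium libraries, and Apoe and Plin2 overlap between the media.

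The other named falls were of genes with varied functions. Acsl6, which activates long-chain polyunsaturated fatty acids such as docosahexaenoic acid (chromosome 11, 54303798 to 54364756), fell to 11.3, 11 and 12.2 TPM with APOE KO medium, against 19.8, 20 and 18.1 TPM with normal medium (log2 -0.70 ± 0.13, adjusted p = 0.00451). Ednrb, the endothelin B receptor, fell to 16, 17.4 and 19.1 TPM with APOE KO medium, against 31.9, 26 and 25.8 TPM with normal medium (log2 -0.64 ± 0.14, adjusted p = 0.02). The untreated libraries had 16.2, 18.6 and 22.9 TPM of Ednrb, the last between the ranges of the media and the others within the APOE KO medium range. Against untreated, its log2 difference was -0.12 for APOE KO medium and 0.52 for normal medium. Nppc, the precursor of C-type natriuretic peptide, fell to 14.6, 14.2 and 15.8 TPM with APOE KO medium, against 22.6, 21.4 and 23.9 TPM with normal medium (log2 -0.58 ± 0.12, adjusted p = 0.0116). The remaining named falls had log2 fold changes of -0.62 (Pcp4, a calmodulin regulator) to -0.39 (Lsp1, an actin-binding protein of leukocytes), with Mmd2 at -0.60, Itih5 at -0.52, Ctxn3 at -0.51, Rarres2, which encodes the chemoattractant chemerin, at -0.50, Atg16l2 at -0.49 and Phyhd1 at -0.42. Lsp1 moved opposite to most leukocyte genes named above. With each of the 6 libraries left out, Acsl6 and Phyhd1 passed every time, Ctxn3 never (adjusted p = 0.0947 to 0.165), Pcp4 1 time (highest adjusted p = 0.123), and Mmd2, Nppc, Rarres2 and Atg16l2 in 2 fits (highest adjusted p = 0.144, 0.0571, 0.131 and 0.183). Ednrb and Lsp1 passed in 3 fits (highest adjusted p = 0.14 and 0.112) and Itih5 in 4 (highest adjusted p = 0.102).

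Motile cilia genes, listed after the values were seen, gave 6 falls (17.6%, against 0.452% of all genes tested) and 1 rise (2.94%, against 0.965%) in 34 tested, with a median of -0.29. Gmnc, which starts multiciliated cell differentiation, was 3.36, 3.78 and 4.77 TPM with APOE KO medium and 7.71, 5.76 and 6 TPM with normal medium (log2 -0.59 ± 0.12, adjusted p = 0.0143). Rsph4a, a radial spoke protein, fell by 0.62 on the log2 scale (SE 0.13, adjusted p = 0.0192), and Tekt2, a tektin, was the gene that rose, at 6.25, 2.62 and 3.6 TPM with APOE KO medium and 0.86, 1.73 and 1.42 TPM with normal medium (adjusted p = 0.0271). Against untreated cells, the list's median was 0.02 with APOE KO medium and 0.30 with normal medium, and the summed level was 527 to 590 TPM with APOE KO medium, 587 to 720 TPM with normal medium and 492 to 585 TPM in untreated cells. No fall was called without APOE KO medium library 1 or normal medium library 1, 1 without APOE KO medium library 2, 2 without APOE KO medium library 3 or normal medium library 2, and 4 without normal medium library 3. None was called with a pseudocount of 0.1 or in a fit of the 2 groups alone.

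Few genes of lipid storage and transport passed the test. None of 14 lipid droplet coat and lipolysis genes passed (4 had an unadjusted p under 0.05, against 2080 of all 16161 genes tested), and their median log2 fold change was 0.03. Without APOE KO medium library 3, 1 of them rose. Plin2, which coats lipid droplets, was 79.8, 85.9 and 80.5 TPM with APOE KO medium and 73.9, 81 and 82.4 TPM with normal medium (log2 0.05 ± 0.06, adjusted p = 0.787), and the groups overlapped. Apoe itself (chromosome 7, 19696109 to 19699188) was 4016, 3665 and 4109 TPM in the astrocytes given APOE KO medium and 4896, 4773 and 4096 TPM in those given normal medium (log2 -0.22 ± 0.10, adjusted p = 0.323). These groups overlapped too, and no library given either medium came near the level in untreated APOE KO astrocytes, 40.4, 47.1 and 43.5 TPM.

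Among the other lipid lists, 0 of 18 triglyceride and phospholipid synthesis genes passed (4 at an unadjusted p under 0.05; median -0.01), 0 of 34 fatty acid oxidation and PPAR targets (5; median 0.00), 0 of 26 cholesterol synthesis and SREBP2 targets (1; median 0.03), 0 of 17 LXR targets and sterol efflux genes (4; median -0.03) and 0 of 19 lipoprotein and receptor genes (4; median 0.01). In some alternatives 1 gene of the triglyceride, oxidation, LXR or lipoprotein list passed. Of 19 fatty acid synthesis and desaturation genes 1 fell (5.26%, against 0.452% of all genes tested). It was Scd1, the stearoyl-CoA desaturase, at 54.2, 60.1 and 62.6 TPM with APOE KO medium and 71, 74 and 76.9 TPM with normal medium (log2 -0.32 ± 0.08, adjusted p = 0.0445). Scd1 did not pass without any 1 of the 6 libraries (adjusted p = 0.0585 to 0.231). Of 17 genes of fatty acid uptake, activation and binding 1 fell, Acsl6 (5.88%, against 0.452% of all genes tested), and the median was -0.17. In a fit of the 2 groups alone 3 of the 17 fell. Fabp7, the brain fatty acid binding protein, was 810, 805 and 676 TPM with APOE KO medium and 1036, 984 and 1088 TPM with normal medium, separated but not past the test (log2 -0.44 ± 0.27, adjusted p = 0.545). Ch25h, cholesterol 25-hydroxylase, an enzyme that macrophages induce, had the largest difference of the LXR list, 1.08 (adjusted p = 0.0786). Adora2a, the A2a adenosine receptor, was at 0.21, 0.46 and 0.17 TPM with APOE KO medium and 0.5, 0.11 and 0.31 TPM with normal medium, under 1 TPM in all 6 libraries (adjusted p = 0.973).

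**Figure D5:**
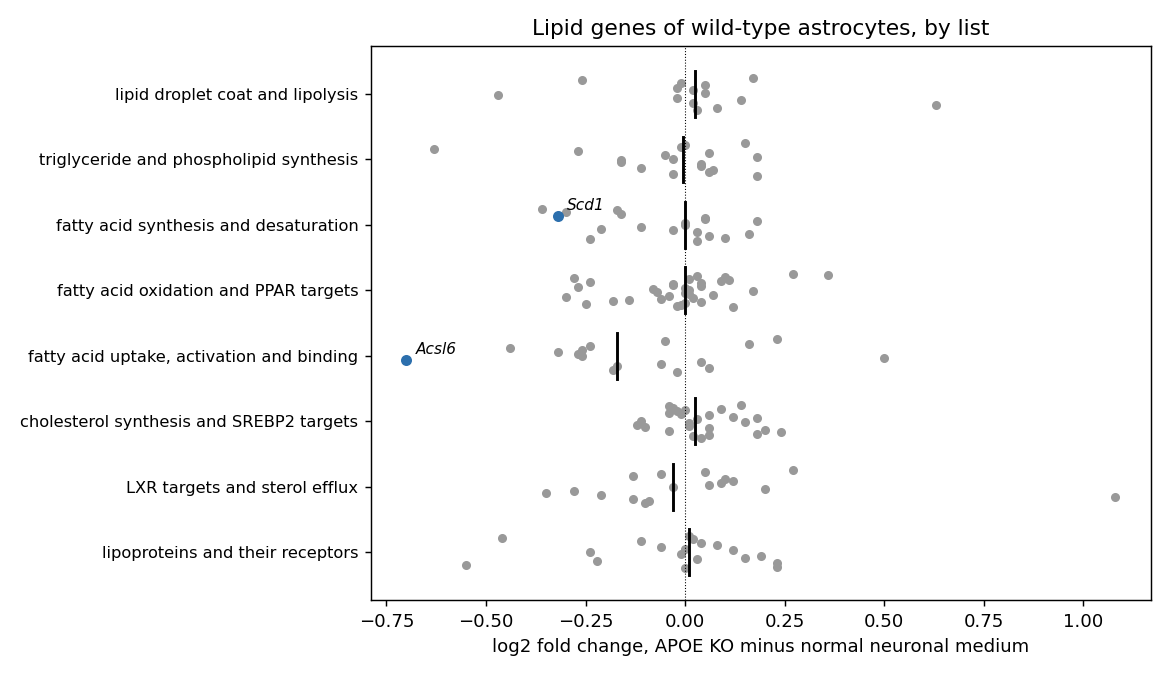
Log2 fold change, APOE KO minus normal neuronal medium, of every gene tested in 8 lipid lists; each point is a gene and each black bar the list's median. Blue points, Scd1 and Acsl6, fell at an adjusted p of 0.05 and all other points did not pass. List medians lie between -0.17 and 0.03.

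The same genes were read in comparisons that share no library with the media. Oleic acid against untreated wild-type astrocytes gave 5050 higher genes (31.2%) and 4619 lower (28.6%), palmitic acid 4325 higher (26.8%) and 5343 lower (33.1%), and untreated APOE KO against untreated wild-type astrocytes 3855 higher (23.9%) and 3403 lower (21.1%). Of the 73 genes that fell with APOE KO medium, 57 (78.1%) were also lower with oleic acid, 55 (75.3%) with palmitic acid and 49 (67.1%) in APOE KO astrocytes. As shares of the other lists these are 1.23%, 1.03% and 1.44%, against the 0.452% of all genes that fell with APOE KO medium. Of the 156 genes that rose, 71 (45.5%) were higher with oleic acid, 93 (59.6%) with palmitic acid and 36 (23.1%) in APOE KO astrocytes, the last close to the 23.9% of all genes. Over the 73 genes that fell, the median log2 fold change was -0.84 with oleic acid, -1.05 with palmitic acid and -0.93 in APOE KO astrocytes. The 3 comparisons share their untreated wild-type libraries with each other, so they are not independent of one another. They also share the estimate of each gene's spread with the comparison of the media, so calls in them are not independent of it.

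Single genes differed in where else they moved. Adgre1 averaged 56.7 ± 2.75 TPM with APOE KO medium, 22.4 ± 2.52 TPM with palmitic acid and 10.5 ± 0.776 TPM with oleic acid in wild-type astrocytes, against 10.1 ± 1.7 TPM untreated (SD, n = 3 each). Lyz2 averaged 347 ± 14.5 TPM with APOE KO medium, 574 ± 40.7 TPM with oleic acid and 430 ± 49.3 TPM with palmitic acid. Marco did not exceed 0.19 TPM in any wild-type library outside the APOE KO medium group. Plin2, which did not pass between the media, rose with oleic acid (log2 1.11, adjusted p = 9.44e-13) and palmitic acid (log2 1.94, adjusted p = 4.75e-17). In APOE KO astrocytes given normal neuronal medium, Adgre1 was 3.1, 4.38 and 3.68 TPM and Cd52 14, 13.7 and 10.4 TPM, below every APOE KO medium library of wild-type astrocytes.

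Library measures and markers of other cells are given as ranges. Mitochondrially encoded transcripts made up 5.37%, 6.26% and 5.32% of the TPM with APOE KO medium, 6.68%, 6.74% and 6.82% with normal medium, and 5.52% to 6.83% untreated; with these genes removed and the libraries rescaled, 138 genes rose and 80 fell between the media. Neuron markers gave no call in 7 tested (0 at an unadjusted p under 0.05), and 9 of 15 were under 1 TPM in all 6 libraries. Oligodendrocyte lineage markers gave none in 9 (2 at an unadjusted p under 0.05), and endothelial markers none in 6 (1), with summed levels of 492 to 544 TPM and 10.5 to 15 TPM with APOE KO medium and 502 to 523 TPM and 13.7 to 15.4 TPM with normal medium. Mural and fibroblast markers gave 1 rise in 14 (7.14%, against 0.965% of all genes tested). It was Col1a2 (log2 0.24, adjusted p = 0.0289, and 0.0743 to 0.122 without 1 of the 6 libraries). These markers summed to 8890 to 9340 TPM with APOE KO medium, 7790 to 8590 TPM with normal medium and 9420 to 10300 TPM untreated. Choroid plexus and ependyma markers gave 1 fall in 8, Rarres2 (12.5%, against 0.452% of all genes tested). They summed to 234 to 275 TPM with APOE KO medium and 271 to 293 TPM with normal medium. The part of these cells in the changes above was not tested.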

How the data were processed

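RNA of cultured mouse astrocytes was sequenced. The authors deposited gene-level values, read here from their size and totals as TPM, in a table of 53700 rows for 27 astrocyte libraries. Per the submitters' processing notes, the tools were HISAT2, StringTie and RSEM and the build mm10, with no version or role stated. The extraction text in the labels speaks of brain; how RNA of the cultures was obtained is not given there. Depth is unknown, so no counting interval is printed.

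Tests were run here with limma 3.58.1 (R 4.3.3) on log2 TPM after adding 1, with its trend option, keeping genes that reached 1 TPM in 3 or more of the 27 libraries. All 9 groups entered, sharing 1 estimate of spread. Benjamini-Hochberg adjustment ran over all genes tested, separately for each comparison, at a threshold of 0.05. The procedure was checked on simulated data. The comparison and all gene lists were chosen with earlier results of these data known. Genes named by rule were Apoe, Adora2a, Gfap and Plin2, up to 4 members of smallest p in each list described, and the 12 rises and 12 falls of greatest size among genes past the threshold whose mean level exceeded the median, whose groups did not overlap, and whose symbols were not predicted, pseudogene, Y-linked or Xist. Every other gene was chosen after its values were seen, and some genes within these rules and lists are not reported here. Coordinates come from the GENCODE M21 annotation of mm10. Alternatives were another pseudocount, other filters, scalings and group sets, a replicate block, a 2-fold minimum, and each library left out.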

Additional observations from a re-analysis of the deposited data

Results flagged for a closer look

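A signal appeared in libraries outside the comparison of the media. In library 1 of the APOE KO astrocytes given oleic acid, the 156 genes that rose with APOE KO neuronal medium lay a median of 0.293 (log2) above the other 2 libraries of that group. The same difference was -0.147 and -0.140 in those other 2 libraries, each of which is set against a mean that includes library 1. In the libraries of the other groups it ranged from -0.059 to 0.059, and in the untreated wild-type libraries from -0.036 to 0.052. In the outlying library 1, 30 of the 156 genes were 2-fold or more above the rest of their group, against 242 of all 16161 genes tested. The 73 genes that fell had a median of -0.085 there, and all genes one of -0.036. Marco was 25 TPM there and 0.11 and 0.12 TPM in the other libraries of the group, and Fpr1 was 6.56 TPM there and 0.06 TPM in both others. Without this library in the fit, 224 genes rose and 94 fell between the media, among them all 156 and all 73.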

How the results depend on the processing

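No called gene named here changed direction under any alternative, and 37 rises and 2 falls (the predicted gene Gm35558 among them) passed under all 16 that were compared for this. Between the media, the 156 rises became 93 under median-ratio scaling and 51 at 2-fold, and the 73 falls became 24 with a pseudocount of 0.1, 48 under median-ratio scaling, 45 in a fit of the 2 groups alone and 4 at 2-fold. With 1 library left out, rises ranged from 85 to 224 and falls from 20 to 94. For APOE KO medium against untreated, the 157 higher genes became 77 under median-ratio scaling, and 80 to 105 higher and 37 to 60 lower were called with 1 library left out. For normal medium against untreated, the 3 higher genes became 1 with a pseudocount of 0.1, 15 with no filter, 1 under median-ratio scaling and 0 in a fit of 3 groups, with 0 to 6 when 1 library was left out. The 3 lower genes became 15, 1 and 1 under the last 3 of those settings, with 0 to 5. The fits of all 5 wild-type groups, without an outlying library, and without each untreated library were chosen after seeing the data.

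The deviations of same-numbered libraries of the media correlated at -0.0375, -0.00601 and -0.0789 over genes, and those of differently numbered libraries at -0.046 to 0.0872. These values show no pairing by number, but with 3 libraries a group they cannot tell whether same-numbered libraries shared a culture or batch. A replicate block over all groups gave 125 rises and 60 falls, and the block in a fit of the 2 groups alone gave 71 and 14. Depth limits what low genes can show, and is unknown here.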

Other observations

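Enzymes and secreted factors outside the groups above also passed. Entpd2, an ectonucleotidase that degrades extracellular ATP, was 9.15, 9.98 and 9.34 TPM with APOE KO neuronal medium and 16.4, 15 and 12.2 TPM with normal neuronal medium (log2 -0.56 ± 0.13, adjusted p = 0.0279). Hpgd, which inactivates prostaglandins, had a log2 fold change of -0.74 ± 0.17 (adjusted p = 0.0275), and S100a4, a calcium-binding protein, one of -0.34 ± 0.06 (adjusted p = 0.00558). S100a4 passed with each of the 6 libraries left out, Entpd2 in 1 of those fits (highest adjusted p = 0.174) and Hpgd in 2 (highest adjusted p = 0.141). Of 30 lysosome and autophagy genes 2 rose (6.67%, against 0.965% of all genes tested), and the median was 0.10. Those that rose were Grn (log2 0.26, adjusted p = 0.0226) and Map1lc3b (log2 0.23, adjusted p = 0.029). Without 1 of the 6 libraries, Grn passed in 2 fits (highest adjusted p = 0.115) and Map1lc3b in 1 (highest adjusted p = 0.123). The predicted gene Gm35558 was listed at 0 in all 3 APOE KO medium libraries, against 7.14, 6.9 and 5.74 TPM with normal medium, while 2 untreated libraries had 7.25 and 7.28 TPM and the other was listed at 0.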
